A study of Bos taurus with 12 samples.

Results

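bta-miR-155, the mature bovine form of miR-155, was followed through small RNA libraries of granulosa cells from subordinate follicles (SF) and dominant follicles (DF). It was taken by its mature name and was 1 of 755 mature names in the count files, whose 906 entries each join a mature miRNA to a precursor. A single entry carried the name bta-miR-155. The miRNA was picked because its level was already known to differ between these groups, so its levels and fold changes are given as a description, without a test.

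A miRNA is a short RNA that guides an Argonaute protein to messenger RNAs and thereby lowers their translation and stability. Its seed pairs with complementary sites, mostly in the 3′ untranslated regions of these messenger RNAs. miR-155 is processed from the transcript of its host gene, MIR155HG (BIC), which AP-1 and NF-kB switch on in activated B cells, T cells and macrophages. It is best known from immune cells, but it has also been found in cells outside the blood, the ovary among them. Granulosa cells line the inside of the ovarian follicle and make oestradiol. The dominant follicle outgrows the others of its wave, while subordinate follicles stop growing and undergo atresia. In the RefSeq annotation of the bovine genome, the gene MIR155 has MRPL39, which encodes a mitochondrial ribosomal protein, as its next neighbour on one side and an uncharacterised lncRNA gene on the other.

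There were 12 libraries in 4 groups, with 3 biological replicates for each follicle class on each of 2 days of the estrous cycle, day 3 and day 7. All came from Simmental heifers synchronised with a prostaglandin analogue and a GnRH analogue, and the heifers slaughtered on the 2 days were different animals. Follicles were classed as SF or DF by their diameter, with limits that were higher on day 7 than on day 3. A follicle at the lower limit for DF on day 3 would have been SF on day 7. The study counted 3 dominant follicles on day 7, fewer than on day 3 and far fewer than the subordinate follicles of either day. The age of the animals was not given in the sources used here. The granulosa cells were spun down from follicular fluid that had been pooled by follicle size, without a sort, so blood cells or cells of the follicle wall could enter the pellet. Replicate numbers were not tied to an animal.

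The libraries held between 160418 and 405129 reads on known miRNAs, and their median depth was 297448.5. In shares of a library, 3 reads came to 0.000741% to 0.00187%, below every value of bta-miR-155. Intervals and limits of this kind cover counting error only, since copies of one molecule made by PCR were not told apart. Of the DF libraries on day 7, replicate 2 was the shallowest and had the highest normalised counts of 4 leukocyte-defining miRNAs. Replicate 3 had the lowest, as described further on. Values that rest on this group are therefore also given with replicate 3 as its sole DF library, except for the interaction of follicle class and day, which was not fitted in that way. The fit with replicate 3 alone was added after seeing the data, because replicates 1 and 2 held most reads of bta-miR-142-5p and bta-miR-150. Smaller differences of leukocyte miRNAs in that fit follow from this choice.

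bta-miR-155 was scarce in DF on day 3, somewhat higher in SF on both days, and abundant in DF on day 7. In SF on day 3 it had 133, 61 and 89 reads in replicates 1, 2 and 3, which were 0.0454%, 0.0306% and 0.0412% of the library. In DF on day 3 it had 29, 35 and 36 reads, or 0.00831%, 0.00864% and 0.0154%. All 3 DF libraries lay below all 3 SF libraries on this day.

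On day 7 the order of the follicle classes was the other way round. SF had 164, 549 and 444 reads of bta-miR-155, or 0.0543%, 0.194% and 0.138% of the library. DF had 4169, 3135 and 3264 reads, or 1.35%, 1.95% and 1.00%. With 95% Wilson intervals, the largest share, in DF replicate 2, lay between 1.89% and 2.02%, and the smallest, in DF replicate 1 on day 3, between 0.00578% and 0.0119%. By reads, bta-miR-155 ranked 18th, 14th and 21st among the 293 to 333 names with a read in the DF libraries on day 7. In DF on day 3 its rank was 146th, 144th and 131st.

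Normalised counts, the reads divided by a median-of-ratios size factor, put the libraries on one scale. They were 125, 86.9 and 115 in SF and 23.0, 22.6 and 37.2 in DF on day 3. On day 7 they were 155, 587 and 458 in SF and 3771, 5515 and 3107 in DF. The group means were 27.6 ± 8.30 (SD, n = 3) in DF on day 3, 109 ± 19.9 in SF on day 3, 399.8 ± 222 in SF on day 7 and 4131 ± 1244 in DF on day 7. The highest library exceeded the lowest by 244-fold.

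**Figure D1:**
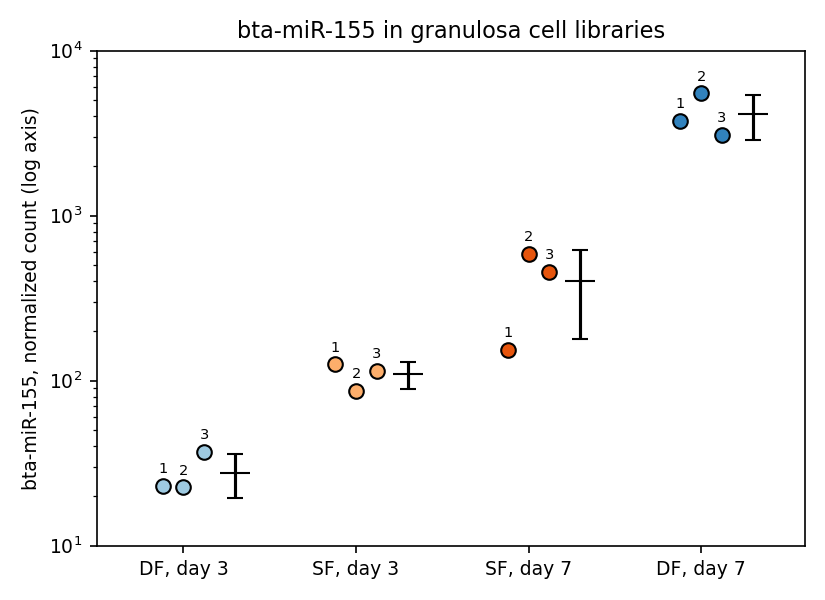
Normalised counts of bta-miR-155 (log axis) in the 4 groups of granulosa cell libraries. Each point is a library and each bar the group mean, with the SD over 3 replicates as the error bar. The DF libraries are the lowest on day 3 (22.6 to 37.2) and the highest on day 7 (3107 to 5515).

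The groups therefore ran from DF on day 3 through SF on day 3 and SF on day 7 to DF on day 7, and no neighbours in this order shared any part of their range. The gaps were unequal. The lowest SF library on day 3 was 2.33 times the highest DF library of that day, and the lowest DF library on day 7 was 5.29 times the highest SF library of that day. Between SF on day 3 and SF on day 7, however, the nearest libraries differed by 1.23-fold, less than the spread within SF on day 7. With TMM or with library size alone the order was the same and neighbours again did not overlap.

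The spread within groups was uneven as well. SF on day 7 ranged 3.80-fold between its libraries, with replicate 1 far below the other two. The SD of the log2 values in this group was 1.02, larger than in 95.7% of the 186 miRNAs with a mean of at least 10 reads, whose median was 0.30. In the remaining groups the SD was 0.27 in SF on day 3, 0.39 in DF on day 3 and 0.42 in DF on day 7. The highest DF library on day 7 was 1.78 times the lowest.

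Across the 4 group means bta-miR-155 spanned 7.17 on the log2 scale, compared with a median span of 1.21 over the 186 miRNAs. This was place 1 of 186 with median-of-ratios factors and place 2 with TMM (7.12) or library size alone (7.01). The miRNA was chosen for this pattern, so its place is a description.

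The first comparison asked how SF and DF differed on day 3, early in the luteal phase. bta-miR-155 was 3.90-fold higher in SF than in DF, a log2 fold change of 1.96 ± 0.24 (SE, n = 3 and 3). By size this was place 35 of all 335 miRNAs tested, and place 4 of the 185 that had at least 10 reads on average. Its libraries did not overlap, which held in the same direction for 14.9% of all 335 miRNAs tested on this day, and nothing is read from this because the miRNA was picked on these values. With single libraries left out in turn the log2 fold change lay between 1.81 and 2.21.

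On day 7 bta-miR-155 was lower in SF than in DF by a log2 fold change of −3.30 ± 0.47 (SE, n = 3 and 3). This was place 37 by size of all 350 miRNAs tested, and place 12 of the 186 with at least 10 reads. Its libraries again did not overlap, as was the case in this direction for 23.1% of the 350 miRNAs tested. With replicate 3 as the sole DF library the log2 fold change was −2.89, the lone library being assumed to vary as those of the other group did.

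The day comparisons asked how each follicle class differed between day 3 and day 7, in different animals. In DF bta-miR-155 was higher on day 7 by a log2 fold change of 7.23 ± 0.34 (SE, n = 3 and 3), which is 149.9-fold. This was place 2 by size of all 360 miRNAs tested, and also of the 186 with at least 10 reads. Libraries did not overlap, with day 7 the higher, for 25% of these 360. With DF replicate 3 as the sole library on day 7 the log2 fold change was 6.83.

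In SF the log2 fold change from day 3 to day 7 was 1.89 ± 0.37 (SE, n = 3 and 3), place 27 by size of all 337 miRNAs tested and place 3 of the 185 with at least 10 reads. Few miRNAs differed between the days in SF, where the libraries of 6.82% of 337 did not overlap and were higher on day 7. The value depended on SF replicate 2 on day 7, without which it was 1.45, and on replicate 1, without which it was 2.26. The difference between the SF and DF contrasts on the 2 days was −5.37 ± 0.55 on the log2 scale, place 13 by size of all 378 and place 4 of the 186 with at least 10 reads, and was not tested for this miRNA.

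Because miR-155 is made by activated leukocytes, miRNAs that mark other cells were set beside it. A miRNA was called different when its log2 fold change reached 1 in either direction, with p not above 0.05 and an FDR not above 10%, in edgeR's quasi-likelihood test over all miRNAs of the comparison. In bulk samples, fewer cells of a type and less RNA per cell cannot be told apart. The leukocyte-defining miRNAs were bta-miR-142-3p and bta-miR-142-5p, the arms of a precursor found throughout the blood lineages, bta-miR-150 of mature lymphocytes and bta-miR-223 of granulocytes and monocytes.

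2 of these 4 were well covered. bta-miR-142-5p had 218, 67 and 97 reads in SF and 170, 166 and 95 in DF on day 3. On day 7 it had 170, 590 and 175 reads in SF and 3082, 4115 and 714 in DF. DF replicate 3 on day 7 was thus much closer to SF than the other DF libraries of its group were. On that day SF and DF did not overlap, but narrowly, with normalised counts of 680 in DF replicate 3 and 631 in SF replicate 2. The same held in this direction for 23.1% of 350 miRNAs.

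bta-miR-150 followed the same course. It had 28, 12 and 35 reads in SF and 46, 22 and 35 in DF on day 3, then 36, 104 and 35 in SF and 544, 1068 and 150 in DF on day 7. SF and DF overlapped on day 3 in both of these miRNAs. Libraries without overlap, with SF the higher, were found on that day for 14.9% of 335 miRNAs. bta-miR-155 was among them but was picked on these values, so nothing is read from the contrast.

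The other members were near 0. bta-miR-223 had at most 1 read in any library on day 3, 1, 2 and 4 reads in SF on day 7 and 6, 5 and 5 in DF on day 7. bta-miR-142-3p had no read on day 3, 0, 1 and 0 reads in SF on day 7 and 5, 4 and 1 in DF on day 7. This arm thus had at most 5 reads where bta-miR-142-5p had up to 4115, and whether the counted reads of the 2 arms stand for their levels was not tested.

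The normalised counts of the 4 leukocyte-defining miRNAs summed to 114 to 233 in SF and 122 to 172 in DF on day 3. On day 7 the sums were 195 to 746 in SF and 828 to 9134 in DF. Within DF on day 7 the library with the lowest sum, replicate 3, was also the one with the lowest bta-miR-155, and the library with the highest sum, replicate 2, had the highest. The sizes differed, since bta-miR-155 ranged 1.78-fold across these 3 libraries while bta-miR-142-5p ranged 10.7-fold and bta-miR-150 13.2-fold.

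**Figure D2:**
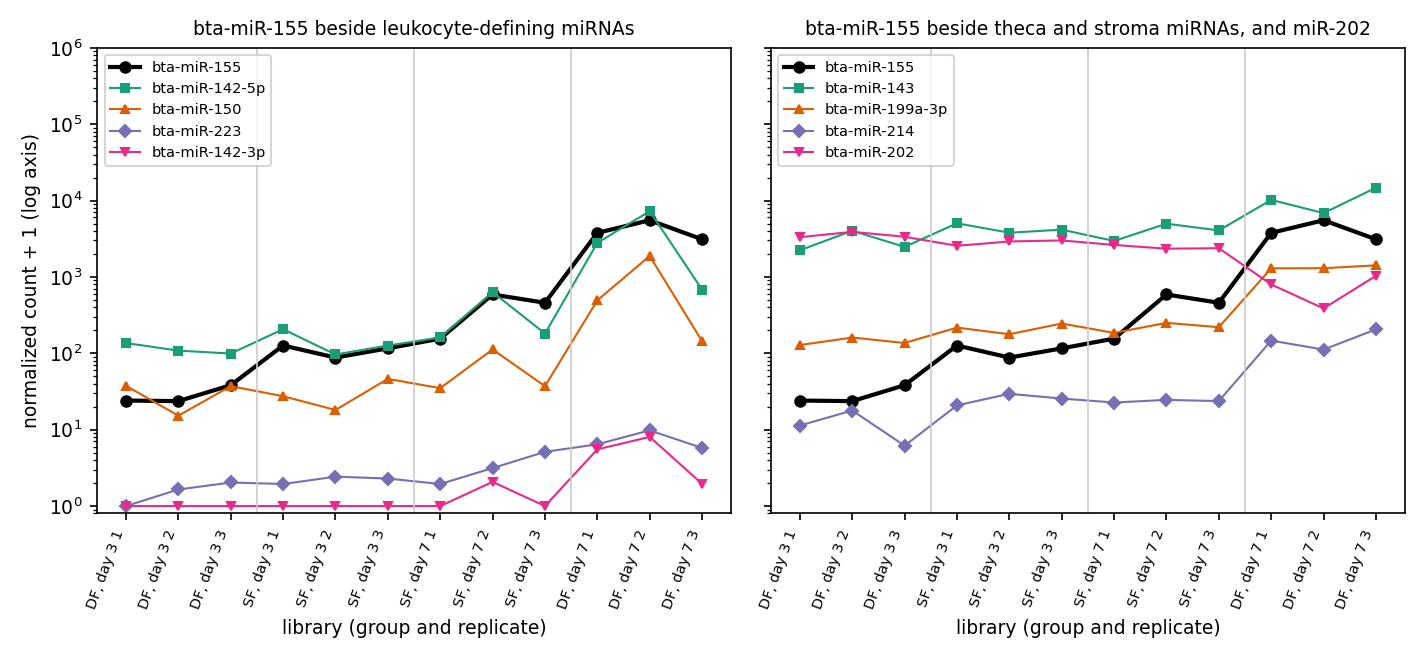
Normalised counts plus 1 (log axis) of bta-miR-155 in each of the 12 libraries, beside leukocyte miRNAs on the left and theca and stroma miRNAs with bta-miR-202 on the right. Points joined by a line belong to one miRNA. In DF on day 7 bta-miR-155 ranges 1.78-fold between replicates and bta-miR-150 ranges 13.2-fold.

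On day 3, none of the 3 leukocyte-defining miRNAs with enough reads to test was called between SF and DF, while 5.67% of all 335 miRNAs were. DESeq2 also called 0, and 0 were at an unadjusted p under 0.05 in edgeR. The log2 fold change was 0.28 ± 0.22 for bta-miR-142-5p (adjusted p = 0.481) and 0.01 ± 0.35 for bta-miR-150 (adjusted p = 0.981). bta-miR-223 was at 0.96 ± 1.27, with 0 or 1 read per library. The corresponding value of bta-miR-155 was 1.96 ± 0.24.

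On day 7, 3 of 4 were called, all lower in SF, beside 33.4% of all 350 miRNAs in either direction and 18.3% in this one. bta-miR-142-5p differed by −3.40 ± 0.83 (adjusted p = 0.0104) and bta-miR-150 by −3.74 ± 0.88 (adjusted p = 0.00903). bta-miR-142-3p also passed at −3.01 (adjusted p = 0.0831), but on few reads and in 8 of 14 alternatives. With 0, 1 and 0 reads in SF, it met the read minimum for testing through DF alone. It could thus hardly come out other than lower in SF. With DF replicate 3 as the sole DF library, the log2 fold changes of bta-miR-142-5p and bta-miR-150 were −0.996 and −1.17. That library was picked as the one lowest in these miRNAs, so their smaller differences follow from the choice. bta-miR-155 was at −2.89 in the same fit, and nothing is read from the contrast.

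From day 3 to day 7 in DF all 4 rose, while 40.3% of 360 miRNAs were called in either direction and 24.4% as higher. bta-miR-142-3p had no read in DF on day 3 and met the read minimum for testing through day 7 alone. It could thus only come out as higher. With a minimum of 10 reads in 3 libraries, 2 members were called. The log2 fold changes were 4.97 ± 0.64 for bta-miR-142-5p (adjusted p = 2.34e-05) and 4.87 ± 0.76 for bta-miR-150 (adjusted p = 0.000127). With replicate 3, the DF library of that day lowest in both, as the sole day 7 library these values became 2.56 and 2.31. That of bta-miR-155 in this fit was 6.83. Replicate 3 was kept because it was low in these leukocyte miRNAs, so their smaller values follow from the choice and nothing is read from the contrast.

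In SF none of the 3 tested members was called between the days, and 0.593% of 337 miRNAs were. DESeq2 called 0 of them, and 2 had an unadjusted p under 0.05 in edgeR. bta-miR-142-5p was at 1.22 ± 0.45 (adjusted p = 0.263) and bta-miR-150 at 1.06 ± 0.48 (adjusted p = 0.447). Without SF replicate 1 on day 7 both were called, while the calls over all miRNAs rose from 2 to 20. The change of bta-miR-142-5p and bta-miR-150 between follicle classes differed by day, with an interaction of −3.79 ± 0.89 (adjusted p = 0.00412) and −3.84 ± 1.04 (adjusted p = 0.0103) in a fit in which 26.5% of 378 miRNAs were called.

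**Figure D3:**
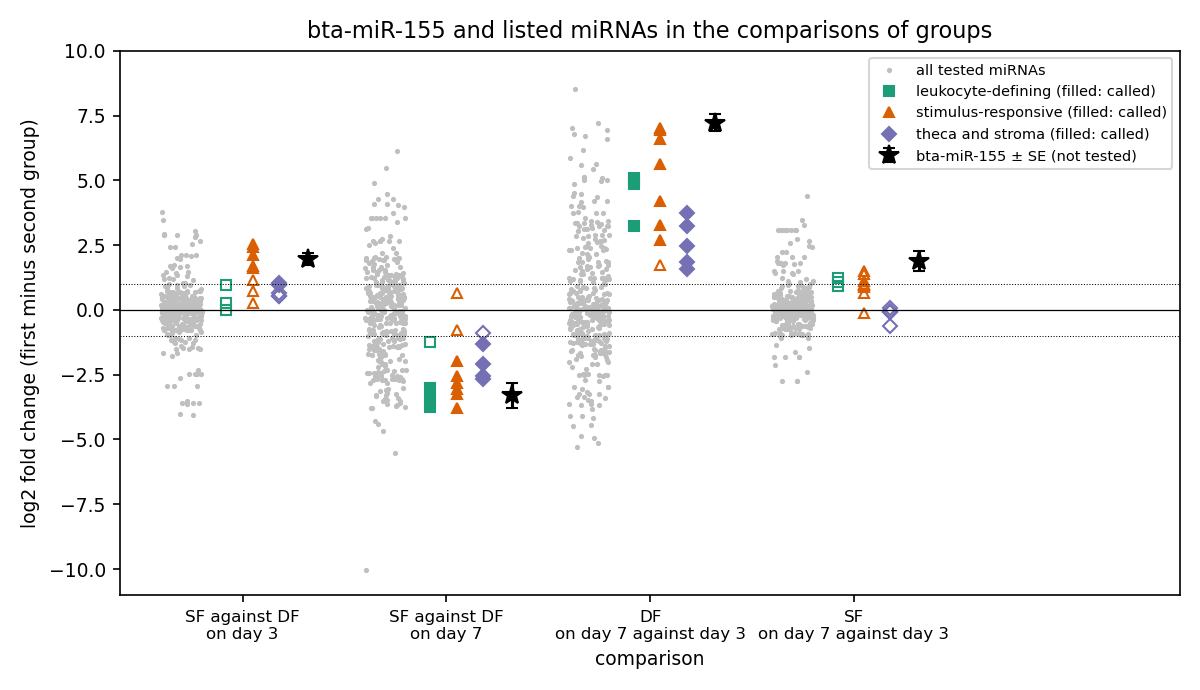
Log2 fold changes (first group minus second) of bta-miR-155 (star, with its SE), of 3 lists (filled where called, open where not) and of all miRNAs tested (grey points) in the 4 comparisons, with dotted lines at a change of 1 in either direction. On day 3 bta-miR-155 lies at 1.96 with bta-miR-142-5p at 0.28 and bta-miR-150 at 0.01, and on day 7 they lie at −3.30, −3.40 and −3.74.

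Reads of bta-miR-155 per read of a leukocyte miRNA were compared within each library, where scaling has no part. Per read of bta-miR-142-5p there were 0.610 to 0.918 reads of bta-miR-155 in SF and 0.171 to 0.379 in DF on day 3. On day 7 there were 0.931 to 2.54 in SF and 0.762 to 4.57 in DF. The ratio thus ran 26.8-fold from lowest to highest. On day 3 the SF and DF ranges were apart, and on day 7 they overlapped.

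Per read of bta-miR-150 the ratio ran from 0.630 to 21.8, with the highest value in DF replicate 3 on day 7. Between the leukocyte miRNAs themselves there were 2.71 to 7.79 reads of bta-miR-142-5p per read of bta-miR-150 over the 12 libraries. Since bta-miR-155 was picked for its differences between these groups, wider ratios to other miRNAs follow from that choice. Nothing is read from the contrast.

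**Figure D4:**
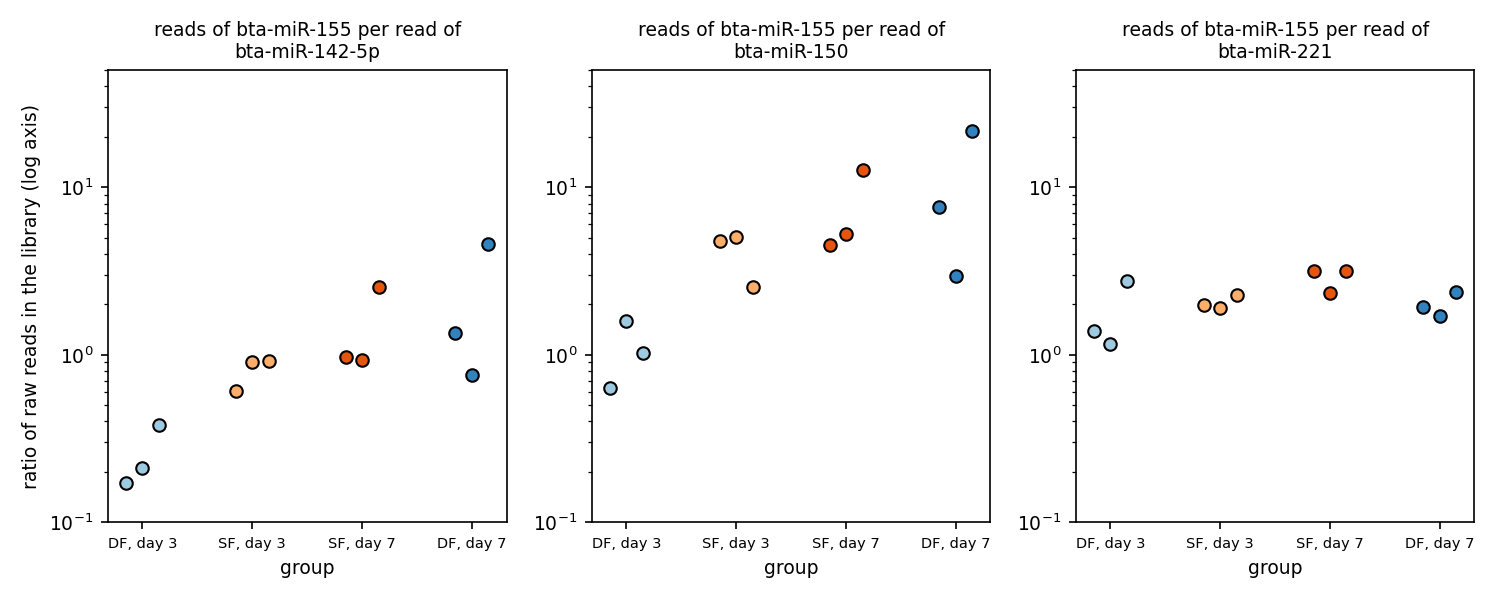
Reads of bta-miR-155 per read of other miRNAs within a library (log axes), by group, with 1 point per library. The ratio to bta-miR-142-5p runs from 0.171 to 4.57. The ratio to bta-miR-221 runs from 1.17 to 3.15, and bta-miR-221 was picked for its near profile in the same libraries, so its range follows from that choice.

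The leukocyte-enriched miRNAs, which many other cells also express, did not move as 1 group. bta-miR-342, common in lymphocytes, was not called in any comparison, with log2 fold changes between −0.03 and 0.36. For SF against DF on day 3, bta-miR-146b was at 0.71 ± 0.20 (adjusted p = 0.0196), below the fold threshold, and bta-miR-146a at 0.25 ± 0.21 (adjusted p = 0.51). None of the 3 was called on that day, beside 5.67% of all miRNAs. However, bta-miR-146b and bta-miR-342 had an unadjusted p under 0.05 in edgeR, both higher in SF, the direction of bta-miR-155. bta-miR-146a and bta-miR-146b, which NF-kB induces and which restrain its signalling, were both higher in DF on day 7 than on day 3, by 3.26 ± 0.49 (adjusted p = 9e-05) and 4.20 ± 0.52 (adjusted p = 1.64e-05), and by 1.69 and 2.44 with replicate 3 as the sole day 7 library. On day 7 both were lower in SF than in DF, by −1.96 ± 0.60 (adjusted p = 0.0317, in 11 of 15 alternatives) and −2.56 ± 0.58 (adjusted p = 0.00774). With DF replicate 3 as the sole DF library neither of these day 7 differences was called, at −0.39 (adjusted p = 0.667) and −0.79 (adjusted p = 0.178).

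Other cell types were covered by further lists. Of the erythrocyte miRNAs, bta-miR-451 and bta-miR-486 were lower in SF than in DF on day 7, by −1.76 ± 0.37 (adjusted p = 0.00547) and −1.56 ± 0.37 (adjusted p = 0.0089), where 18.3% of all miRNAs were called lower. With DF replicate 3 as the sole DF library neither was called in edgeR, although both had an unadjusted p under 0.05. Between the days in DF 0 of 3 were called by edgeR or DESeq2, with a median log2 fold change of 0.65 and 1 member, bta-miR-451, at an unadjusted p under 0.05. Over all miRNAs 40.3% were called in that comparison.

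The theca and stroma list held bta-miR-143 and bta-miR-145 of smooth muscle, and bta-miR-199a-3p, bta-miR-199a-5p and bta-miR-214 of fibroblasts and other mesenchymal cells. All 5 rose from day 3 to day 7 in DF, from 1.57 ± 0.23 for bta-miR-145 to 3.74 ± 0.38 for bta-miR-214, beside 24.4% of all miRNAs. With replicate 3 as the sole day 7 library bta-miR-145 was at 1.75 and bta-miR-214 at 4.15. On day 7, 4 of 5 were called lower in SF, beside 18.3% of all miRNAs, and bta-miR-145 was also lower at −0.88 (adjusted p = 0.0787), below the fold threshold. In SF 0 of 5 were called between the days by edgeR or DESeq2, with 1 at an unadjusted p under 0.05, beside 0.593% of all miRNAs.

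On day 3 all 5 theca and stroma miRNAs had positive log2 fold changes for SF against DF, the direction of bta-miR-155, with a median of 0.65 against −0.04 over all miRNAs, and all 5 had an unadjusted p under 0.05. The fold threshold was reached by 1 of 5, bta-miR-214 at 1.03 ± 0.38 (adjusted p = 0.0739), beside 3.88% of all miRNAs called as higher, and it kept the call in 5 of 14 alternatives. bta-miR-199a-5p was at 0.94 ± 0.17 (adjusted p = 0.000377), below that threshold.

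The summed normalised count of the theca and stroma list was 4353 to 5688 in SF and 2589 to 4436 in DF on day 3, then 3408 to 5633 in SF and 9016 to 17531 in DF on day 7. In DF on day 7 it ran against the leukocyte sum, being highest in replicate 3 and lowest in replicate 2. With DF replicate 3 as the sole DF library, SF against DF gave −1.81 for bta-miR-143, −1.07 for bta-miR-145 and −2.64 for bta-miR-199a-3p. In the same fit bta-miR-199a-5p was at −2.44 and bta-miR-214 at −3.11.

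In endothelium, bta-miR-126-3p was called in 1 comparison, higher on day 7 in DF at 1.05 (adjusted p = 0.01, in 12 of 15 alternatives, and 1.16 with replicate 3 as the sole day 7 library), and bta-miR-126-5p in none. The 5 epithelial miRNAs of the miR-141 and miR-200 families summed to at most 22.7 normalised counts in any library. Of these, bta-miR-141 was called lower in SF than in DF on day 3 at −3.51 ± 1.22 (adjusted p = 0.0655), with 0, 0 and 1 reads in SF and 1, 6 and 13 in DF, and kept the call in 7 of 13 alternatives. bta-miR-202, a miRNA of the gonads that granulosa cells express, was at 2821 ± 237 (SD, n = 3) in SF and 3517 ± 319.5 in DF on day 3. It was at 2443 ± 151 in SF and 738 ± 327 in DF on day 7, a log2 fold change in DF of −2.28 ± 0.29 (adjusted p = 1.93e-05), or −1.78 with replicate 3 as the sole day 7 library.

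Leukocyte and stroma miRNAs thus rose, and bta-miR-202 fell, in the same DF libraries of day 7 in which bta-miR-155 was high. Their part in the level of bta-miR-155 was not tested.

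The next list held 8 miRNAs that, like miR-155, respond to AP-1, NF-kB or cAMP signalling. They were bta-miR-146a and bta-miR-146b, both arms of the miR-21 precursor, bta-miR-221 and bta-miR-222 from 1 shared transcript, and bta-miR-132 and bta-miR-212 from another, which CREB induces. They were chosen with earlier results of these libraries known and are no independent evidence.

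On day 3 all 8 had positive log2 fold changes for SF against DF, and 7 had an unadjusted p under 0.05 in edgeR. Called higher in SF were 5 of the 8, beside 3.88% of all miRNAs called in that direction. These were bta-miR-21-5p at 1.71 ± 0.13 (adjusted p = 2.41e-10), bta-miR-21-3p at 2.10 ± 0.29 (adjusted p = 1.4e-05), bta-miR-221 at 1.62 ± 0.27 (adjusted p = 0.000103), bta-miR-222 at 2.53 ± 0.39 (adjusted p = 5.42e-05) and bta-miR-212 at 2.41 ± 0.78 (adjusted p = 0.0437). The last of these had few reads and kept its call in 8 of 13 alternatives. The median over the 8 was 1.67, against −0.04 over all miRNAs tested.

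On day 7, 6 of the 8 were called lower in SF, beside the same 18.3% of all miRNAs. They ranged from −1.96 for bta-miR-146a to −3.80 ± 0.58 for bta-miR-221 (adjusted p = 0.000712), and bta-miR-132 (−0.79, adjusted p = 0.159) and bta-miR-212 (0.66, adjusted p = 0.5) were not called. The median was −2.68, against −0.05. With DF replicate 3 as the sole DF library 4 of 8 were called lower in SF, namely both miR-21 arms, bta-miR-221 and bta-miR-222, beside 12.9% of all miRNAs in that fit.

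In DF 7 of the 8 were called higher on day 7 than on day 3, beside 24.4% of all miRNAs. bta-miR-221 changed by 7.00 ± 0.39 (adjusted p = 5.73e-09), bta-miR-222 by 6.93 ± 0.46 (adjusted p = 2.99e-08), bta-miR-21-3p by 6.61 ± 0.30 (adjusted p = 9.12e-10) and bta-miR-21-5p by 5.62 ± 0.22 (adjusted p = 2.47e-10). With replicate 3 as the sole day 7 library these 4 were at 6.27, 6.38, 6.85 and 5.86, in the same order. In SF none of the 8 passed between the days in edgeR, with a median of 0.99, while 6 were at an unadjusted p under 0.05 and DESeq2 called 3. There, bta-miR-21-3p was at 1.39 ± 0.41 and bta-miR-221 at 1.504 ± 0.44 (adjusted p = 0.15 for both). Without SF replicate 1 on day 7, 6 of the 8 were called, while the calls over all miRNAs rose from 2 to 20, so this count turned on a single library.

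bta-miR-221, the most similar of these, shows the course in raw reads. It had 67, 32 and 39 reads in SF and 21, 30 and 13 in DF on day 3. On day 7 it had 52, 236 and 141 reads in SF and 2159, 1848 and 1383 in DF. Replicate 1 was the low SF library on day 7, as it was for bta-miR-155. SF and DF did not overlap on either day, as held in the same directions for 14.9% of 335 miRNAs on day 3 and 23.1% of 350 on day 7. bta-miR-221 is shown for its near profile in these libraries, so such likeness to bta-miR-155 follows from that choice.

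bta-miR-21-5p, an abundant miRNA that is raised in many activated and growing cells, had 2870, 1844 and 1992 reads in SF and 892, 1189 and 833 in DF on day 3. On day 7 it had 2476, 7716 and 4886 reads in SF and 43258, 17931 and 48079 in DF. In normalised counts, the DF mean on day 7 was 38811 ± 7114 (SD, n = 3), against 779.6 ± 76.6 on day 3.

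The profile of bta-miR-155 was then compared with those of the other 185 miRNAs that had a mean of at least 10 reads. Likeness was the mean absolute difference over the 12 libraries of log2(normalised count + 1), after each miRNA was centred on its own mean. The 12 points share libraries and fall into 4 groups, so the values are a description. The nearest were bta-miR-221 (0.34), bta-miR-21-3p (0.34) and then bta-miR-222 (0.35), where the median over the 185 was 2.37.

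These were followed by bta-miR-21-5p (0.60), bta-miR-708 (0.64), bta-miR-193b (0.78), bta-miR-142-5p (0.94) and bta-miR-23a (0.95). bta-miR-146b and bta-miR-150 came next, at places 9 and 10 (1.09 and 1.11), whereas bta-miR-202 was at place 172. The leukocyte miRNA bta-miR-142-5p was thus among the nearest 8, at place 7. With Pearson's correlation as the measure, 6 of the 8 were retained.

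bta-miR-708 and bta-miR-193b came closest to bta-miR-155 outside the lists. The mean normalised count of bta-miR-708 was 12.2 in SF and 4.18 in DF on day 3, and 22.9 in SF and 317 in DF on day 7. That of bta-miR-193b was 35.0 and 21.5 on day 3 and 69.7 and 706.7 on day 7. Both were lowest in DF on day 3 and highest in DF on day 7, as bta-miR-155 was.

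**Figure D5:**
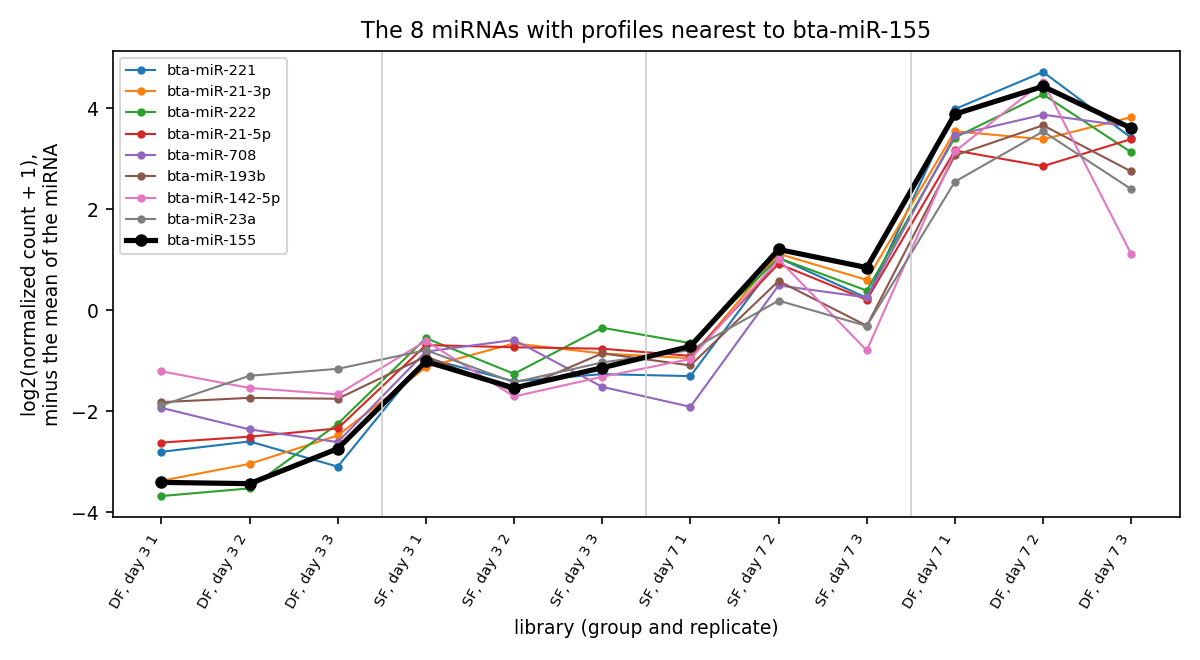
Centred log2(normalised count + 1) in the 12 libraries for bta-miR-155 (thick line) and the 8 miRNAs with the nearest profiles. The 3 nearest, led by bta-miR-221, differ from bta-miR-155 by 0.34 to 0.35 on average per library.

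The reads of bta-miR-155 per read of its nearest neighbours are given within libraries as a description, since these miRNAs were picked for a small difference over the same libraries and a narrow ratio follows from that choice. There were 1.17 to 3.15 reads of bta-miR-155 per read of bta-miR-221, a 2.70-fold range over all 12 libraries, and 2.34 to 5.80 per read of bta-miR-222, a 2.48-fold range. Per read of bta-miR-21-3p the ratio was 1.27 to 4.83. Per read of bta-miR-21-5p it was 0.0294 to 0.175, a 5.94-fold range. Against bta-miR-202 the ratio was 0.00583 to 0.0111 in the DF libraries of day 3 and 3.01 to 14.3 in those of day 7.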

How the data were processed

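Small RNA of granulosa cells (TruSeq libraries, single reads) was sequenced in 12 samples. Per the labels and the study's methods, the authors used CASAVA 1.8.0 and FastQC, trimmed adapters with cutadapt, aligned the reads to the bovine genome and counted known miRNAs with miRDeep2. They deposited raw read counts per pair of mature miRNA and precursor, without normalisation, so a read matching several precursors is counted at each. The pair with the highest total represented each of 755 names.

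Size factors were median-of-ratios factors over the 12 libraries, scaled to a mean of 1. Each comparison used its own 6 libraries and the miRNAs that had 1 read or more in 2 or more replicates of a group. edgeR 4.0.16 (R 4.3.3) gave two-sided quasi-likelihood F tests with a prior count of 0.125 and Benjamini-Hochberg adjustment over all miRNAs tested. The SE is the log2 fold change divided by the square root of F, an approximation. The interaction used all 12 libraries.

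The members and lists were chosen with earlier results of these data known. Named were bta-miR-155, all list members and the 8 miRNAs nearest in profile. Same-numbered SF and DF libraries on day 7 deviated together from their group means (correlations of 0.126, 0.159 and 0.181), above the 0.1 taken as the limit for a pairing. DF replicate 1 on day 7 and DF replicate 2 on day 3, from different animals, reached 0.133, so a shared animal is not shown. The values printed are from the fit without a replicate block, and the block is an alternative. In the other comparisons not every pair exceeded 0.1. Scripts were tested on simulated data. Alternatives were DESeq2 1.42.0, TMM, library size alone, counts unfiltered or filtered to 10 reads in 3 libraries, counts summed over precursors, a replicate block, 1 fit of all 12 libraries and leaving out each library. No sequence or coordinate is printed.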

Additional observations from a re-analysis of the deposited data

Results flagged for a closer look

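For bta-miR-155 every SF library lay above every DF library on day 3, with a log2 fold change of 1.96, and below every DF library on day 7, with −3.30. The sign of the SF to DF difference thus reversed between the days, and this reversal was not tested because the miRNA was picked for it.

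For 16 of the 28 listed miRNAs tested the difference between SF and DF changed with the day in an interaction test over all 12 libraries by edgeR's quasi-likelihood method, beside 26.5% of all 378 miRNAs. Among miRNAs also listed as stimulus-responsive, the interaction was −5.85 for bta-miR-222 and −5.54 for bta-miR-221 on the log2 scale. The miR-21 arms were at −5.26 (bta-miR-21-3p) and −4.66 (bta-miR-21-5p). It was −2.32 for bta-miR-146a, −3.36 for bta-miR-146b and −2.08 for bta-miR-132, the last of which lost its call without SF replicate 3 on day 3.

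Among leukocyte-defining miRNAs it was −3.79 for bta-miR-142-5p and −3.84 for bta-miR-150. Among theca and stroma miRNAs it was −1.98 for bta-miR-143, −1.66 for bta-miR-145, −3.21 for bta-miR-199a-3p, −3.15 for bta-miR-199a-5p and −3.86 for bta-miR-214. The erythrocyte miRNA bta-miR-451 was at −1.82 and lost its call without SF replicate 1 on day 3 or DF replicate 2 on day 7. bta-miR-202 moved the other way, at 2.04.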

How the results depend on the processing

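All 82 alternative values of the levels and fold changes of bta-miR-155 kept their direction and stayed within 1 SD of the replicates, and 205 of 231 alternative counts of called miRNAs stayed within 1.5 times the main count. Leaving out 1 of 3 libraries can hardly move a mean by 1 SD, so those alternatives are no test of the levels and fold changes. With the replicate block, SF against DF on day 7 gave −3.44 for bta-miR-155 and the same 3 leukocyte-defining and 6 stimulus-responsive counts. In the other comparisons not every same-numbered pair deviated together. Between the days in SF the block gave 2 stimulus-responsive calls instead of 0, and 7 instead of 2 over all miRNAs.

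Leukocyte-defining counts moved from 3 to 0 on day 7 with DF replicate 3 as the sole DF library (chosen after seeing the data), from 4 to 2 in DF between the days with at least 10 reads, which leaves out the members near 0, and from 0 to 2 in SF between the days without a filter. Leaving out single libraries gave 0 to 2 there and 0 to 6 for the stimulus-responsive miRNAs, for which DESeq2 gave 3 and no filter 4. The cause was not tested.

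Over all miRNAs, SF against DF on day 3 gave 19 calls, and 11 with DESeq2, 12 with at least 10 reads, 8 in 1 fit of all libraries and 10 without SF replicate 1. On day 7 the 117 calls became 73 with DF replicate 3 alone, and in DF 145 became 92 with at least 10 reads. Between the days in SF, 2 became 5 with DESeq2, 12 without a filter, 0 with at least 10 reads and 0 to 20 with single libraries left out. Library size alone moved the median log2 fold change of all miRNAs by −0.14 for SF against DF on day 7, −0.13 for DF between the days and −0.14 for SF between the days.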
